A study of Mus musculus with 35 samples.

Results

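Gluconeogenesis was examined here through the transcripts of 6 genes, Pck1, Pck2, Pcx, Fbp1, G6pc and Slc37a4, out of 31053 genes counted in 35 libraries of mouse kidney at postnatal day 2. They were taken by their symbols and joined by Ensembl identifier across all libraries. In the fits of whole crosses Pck1 was the only one of the 6 to pass the test, with less transcript in libraries labelled Flcn KO and in those labelled Flcn/Tfe3 DKO than in their controls.

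All mice were of the C57BL/6 strain. From the Flcn cross came 5 libraries labelled Flcn KO (Flcn flox/flox; Ksp-cre+) and 5 controls, and the Flcn/Tfeb cross gave 4 labelled Flcn/Tfeb DKO (homozygous for floxed Flcn and floxed Tfeb, with Ksp-cre) and 3 controls. These 17 libraries are called set A. The Flcn/Tfe3 cross gave 10 libraries labelled Flcn/Tfe3 DKO (Flcn flox/flox; Ksp-cre+; Tfe3-/-) and 8 controls, deposited as set B (6 and 3 libraries) and set C (4 and 5). Controls of the study are Flcn flox/flox, but the labels give no alleles for the controls of any cross. Ksp-cre is driven by the promoter of Cdh16, a cadherin of the thick ascending limb, distal tubule and collecting duct, so that Flcn and Tfeb are deleted in these segments, whereas the Tfe3 null allele is carried by every cell of the animal. Folliculin, the product of Flcn, holds the transcription factors TFEB and TFE3 in the cytosol when nutrients are plentiful, and the crosses ask what its loss does to the kidney with and without each of them.

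The number of reads assigned to genes lay between 1652649 and 4239356, so that 3 counts are 0.708 to 1.82 in 1000000 counts of a library before any scaling, a limit that covers counting error only. Levels are given in CPM, which are counts in 1000000 after TMM scaling between libraries. Flcn itself had log2 fold changes of 0.088, 0.11 and 0.20 in the 3 crosses, Tfeb -0.73 in the Flcn/Tfeb cross and Tfe3 -0.086 in the Flcn/Tfe3 cross, none of which passed the test. In the Flcn/Tfeb cross Tfeb had 8.87, 6.61 and 18.9 CPM in control replicates 1 to 3. The DKO libraries of that cross had 6.13 to 7.49 CPM of Tfeb, so that its value leans on control replicate 3. The libraries hold reads from the 3′ ends of transcripts, which can lie outside a deleted part, so these genes do not check the labels. Groups are therefore called by their labels. The summed level of 11 hepatocyte markers exceeded 1000 CPM in 9 libraries spread over 6 of the 8 combinations of group and set, and Xist, which is transcribed from the inactive X chromosome of females, had more than 3 counts in 1 of 5 libraries of each group of the Flcn cross but in 6 of 8 controls and 3 of 10 DKO libraries of the Flcn/Tfe3 cross. The proximal tubule was represented in every library, with 3391 to 5848 CPM over 26 markers.

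Gluconeogenesis makes glucose from lactate, glutamine and glycerol. In the kidney it takes place in the proximal tubule, which the paper does not name among the segments that express the Ksp-cre transgene. Whether Flcn was deleted there was not tested. Pyruvate carboxylase (Pcx) makes oxaloacetate in mitochondria, the phosphoenolpyruvate carboxykinases of the cytosol (Pck1) and of mitochondria (Pck2) turn oxaloacetate into phosphoenolpyruvate, fructose-1,6-bisphosphatase (Fbp1) bypasses phosphofructokinase, and the glucose-6-phosphate transporter (Slc37a4) and the catalytic subunit of glucose-6-phosphatase (G6pc) release free glucose in the endoplasmic reticulum. Pck1 is in addition tied to renal ammonia production, since it disposes of the carbon of glutamine.

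On GRCm38, Pck1 (ENSMUSG00000027513) lies on chromosome 2 from 173153048 to 173159273, Pck2 (ENSMUSG00000040618) on chromosome 14 from 55540266 to 55551242 and Pcx (ENSMUSG00000024892) on chromosome 19 from 4510472 to 4621752. Fbp1 (ENSMUSG00000069805) lies on the reverse strand of chromosome 13 from 62864753 to 62888282, G6pc (ENSMUSG00000078650) on chromosome 11 from 101367561 to 101377903 and Slc37a4 (ENSMUSG00000032114) on chromosome 9 from 44396852 to 44402968. All 6 are protein-coding genes of GENCODE release M21. The 250 bases before each start given by RefSeq (GRCm38.p6, 9 starts for the 6 genes) were searched on both strands for TCACGTGA (the CLEAR element bound by TFEB and TFE3), for its core CACGTG, for TGACGTCA (the cAMP response element) and its variant TTACGTCA, for GTAAACA (a forkhead element), for TGTTCT (the core of glucocorticoid response elements) and for CCAAT. The upstream sequences of Pck1, the gene whose transcript fell, and of Pcx and Fbp1 are shown for the matches they hold, which are in capitals.
Pck1, chr2:173152823-173153047, forward strand: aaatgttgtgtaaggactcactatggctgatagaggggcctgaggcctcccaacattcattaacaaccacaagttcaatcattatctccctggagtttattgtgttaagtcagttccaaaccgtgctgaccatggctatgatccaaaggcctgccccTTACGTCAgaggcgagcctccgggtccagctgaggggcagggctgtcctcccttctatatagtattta
Pcx, chr19:4510222-4510471, forward strand: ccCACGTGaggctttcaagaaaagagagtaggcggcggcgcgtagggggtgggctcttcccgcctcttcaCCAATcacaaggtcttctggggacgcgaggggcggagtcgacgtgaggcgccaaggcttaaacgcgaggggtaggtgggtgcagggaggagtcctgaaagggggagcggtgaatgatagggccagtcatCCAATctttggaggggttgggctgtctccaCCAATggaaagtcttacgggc
Fbp1, chr13:62888283-62888532, reverse strand: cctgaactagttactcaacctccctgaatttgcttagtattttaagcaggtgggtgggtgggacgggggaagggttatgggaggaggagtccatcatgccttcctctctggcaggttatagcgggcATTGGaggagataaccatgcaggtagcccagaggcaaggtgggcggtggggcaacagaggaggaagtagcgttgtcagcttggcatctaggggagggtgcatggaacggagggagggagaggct
In Pck1 the capitals mark TTACGTCA, 93 to 86 bases before the RefSeq start, a match found in 0.447% of the 32851 windows of this length. In Pcx they mark CACGTG at the far end of the window, which 6.02% of windows hold, and 3 copies of CCAAT, and in Fbp1 they mark CCAAT on the opposite strand, which 33.8% of windows hold in either orientation. TCACGTGA (0.785% of windows), TGACGTCA (1.55%), GTAAACA (3.17%) and TGTTCT (16.1%) are not among the letters of any of the 9 windows. Of the windows not shown, that of Pck2 holds CCAAT 41 to 37 bases before the start and that of G6pc holds it at 214 to 210 and at 204 to 200 bases, and the others hold no match. A match is a description of the sequence and was not tested as a site.

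In the Flcn cross, Pck1 was lower in every library labelled Flcn KO than in every control. Its level was 101, 81.4, 57.8, 85.0 and 113 CPM in Flcn KO replicates 1 to 5, and 147, 169, 147, 140 and 174 CPM in control replicates 1 to 5. The groups did not overlap, the highest Flcn KO library being below the lowest control. The means were 87.5 ± 20.7 CPM (SD, n = 5) and 155 ± 14.96 CPM (SD, n = 5). In edgeR's quasi-likelihood test this was a log2 fold change of -0.83 with a standard error of 0.15, a 95% interval from -1.13 to -0.52 and an adjusted p of 0.0092. The transcript level thus fell by 43.6%. In an exact two-sided permutation of the libraries the p was 0.0079, the smallest that 5 against 5 libraries allow. Calls are those with an adjusted p below 0.05. Pck1 was 1 of 8 genes called lower among 11932 tested in this cross (0.067%; 0.453% were called higher and 0.52% either way), and 0.729% of genes had all Flcn KO libraries below all controls. In whole kidney, fewer cells of a type and less RNA per cell cannot be told apart.

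**Figure D1:**
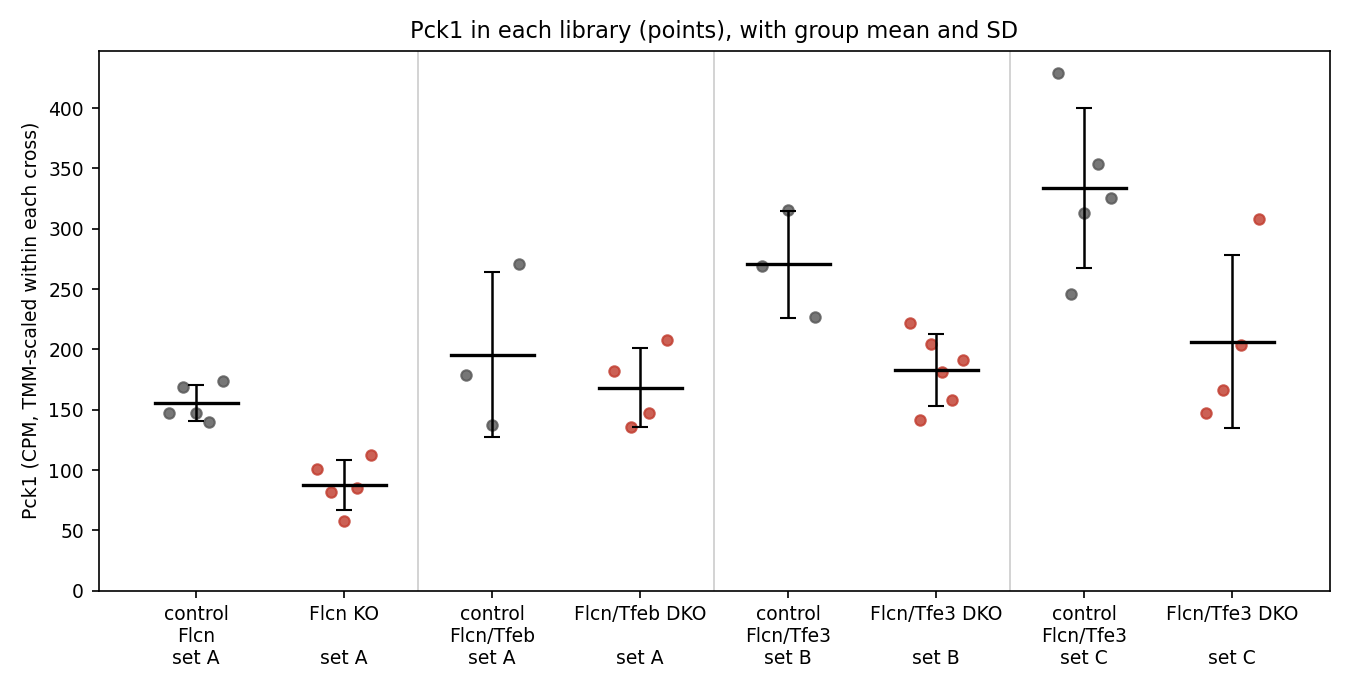
Pck1 in CPM (vertical axis, from 0) in each of the 35 libraries, by group and set (horizontal axis); grey points are controls, red points KO or DKO libraries, and the bars give the mean and SD. The 5 Flcn KO libraries lie between 57.8 and 113 CPM, below all controls of their cross, whereas the Flcn/Tfeb groups overlap and 1 Flcn/Tfe3 DKO library of set C reaches 308 CPM.

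The other 5 genes of the pathway were not called in the Flcn cross. Pck2, the mitochondrial counterpart of Pck1, averaged 28.6 ± 3.92 CPM, with 35.3 ± 4.68 in the controls (SD, n = 5 each), which is -0.28 on the log2 scale (95% interval -0.59 to 0.024, adjusted p = 0.58 from edgeR). For Pcx the log2 fold change was -0.24 (-0.57 to 0.082, adjusted p = 0.66), for Fbp1 -0.22 (-0.49 to 0.056, adjusted p = 0.64) and for Slc37a4 -0.27 (-0.58 to 0.034, adjusted p = 0.61, -0.17 without Flcn KO replicate 3). G6pc had the value closest to 0, -0.084 (-0.49 to 0.33, adjusted p = 0.93), and its controls were themselves spread from 108 to 242 CPM. In each of these genes the 2 groups overlapped. All 6 log2 fold changes were below 0, with a median of -0.26, where the median of all genes tested was -0.0074 and 51.5% of them were below 0.

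**Figure D2:**
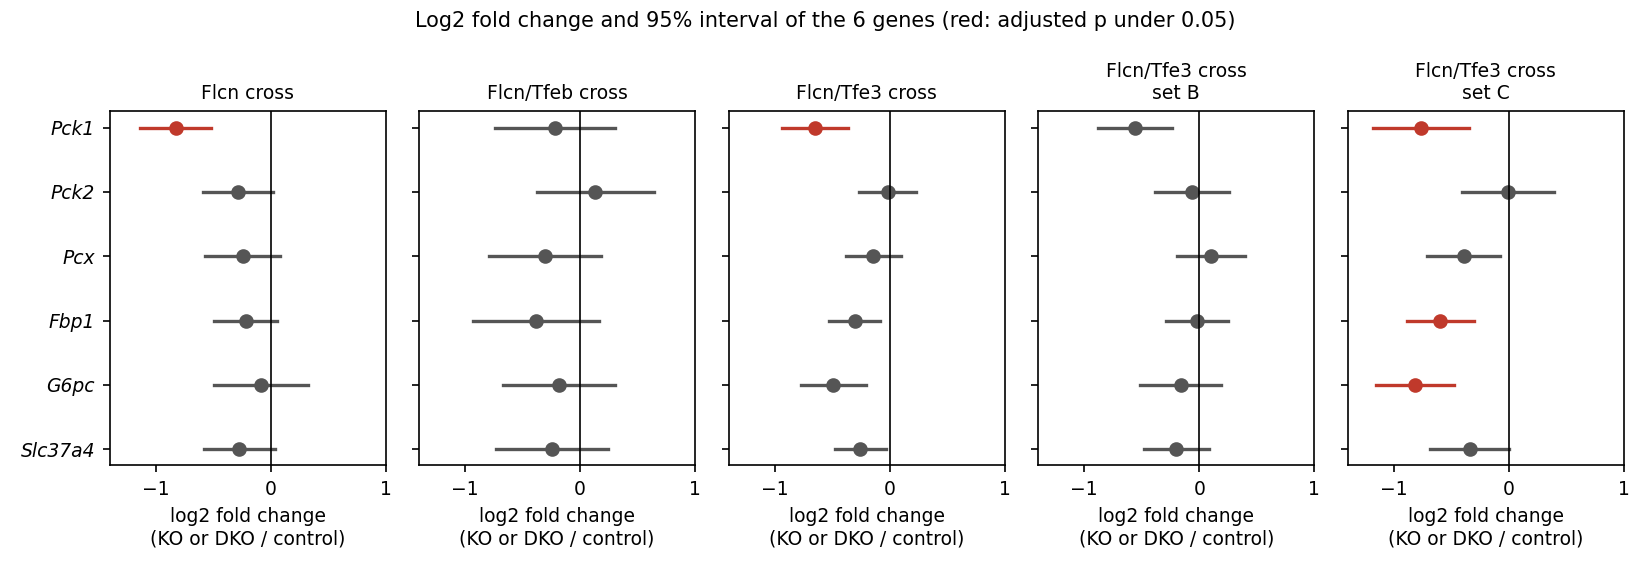
Log2 fold change of KO or DKO libraries over controls (horizontal axis) with its 95% interval for the 6 genes (vertical axis), in the 3 crosses and in sets B and C of the Flcn/Tfe3 cross fitted alone; red marks an adjusted p under 0.05. Pck1 is red in the Flcn cross (-0.83), in the Flcn/Tfe3 cross (-0.65) and in set C (-0.76), where Fbp1 and G6pc are red as well.

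Pck1 was then set against each of the other enzymes within the same library, a ratio from which the scaling of the library drops out apart from the 0.5 CPM added to each level. The log2 ratio of Pck1 to Slc37a4 differed by -0.54 between libraries labelled Flcn KO and controls, with all 5 below all controls (exact permutation p = 0.0079, adjusted p = 0.048 over the 15 ratios of the 3 crosses, Benjamini-Hochberg). The difference was -0.62 for the ratio to Pcx and -0.64 for that to Fbp1, each with 4 of 5 libraries below all controls (exact p = 0.016, adjusted p = 0.048 for both). The ratios to Pck2 and G6pc differed by -0.55 and -0.81 and did not pass the adjustment (exact p = 0.032 and 0.040, adjusted p = 0.066 for both). With 2 CPM added in place of 0.5, none of the 5 ratios of this cross passed (adjusted p = 0.051 for those to Slc37a4, Pcx, Fbp1 and Pck2 and 0.066 for that to G6pc).

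Most of the 26 proximal tubule markers lay below 0 as well, by less than Pck1. In the Flcn cross 22 of 26 had a log2 fold change below 0, 6 of them at an unadjusted p under 0.05 (3.81% of all genes tested were lower at this p) and 0 after adjustment, with a median log2 fold change of -0.19 and a range from -0.50 to 0.15, so that the value of Pck1 lies outside the range of this list. Their sum was 3950 to 4865 CPM in libraries labelled Flcn KO and 4608 to 5847 CPM in controls. Per 1000 CPM of these markers, Pck1 stood at 19.6 ± 4.02 CPM under the label Flcn KO and at 30.2 ± 3.70 CPM in controls (SD, n = 5 each), with all 5 below all controls (log2 difference -0.64, exact permutation p = 0.0079). For the other 5 genes this difference lay between -0.097 and 0.17, with exact p from 0.41 to 1. With the log2 of the summed markers as a covariate the log2 fold change of Pck1 was -0.67 and was no longer called (adjusted p = 0.33), in a fit that called 11 genes in place of 62. Both measures were chosen after the data were seen.

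**Figure D3:**
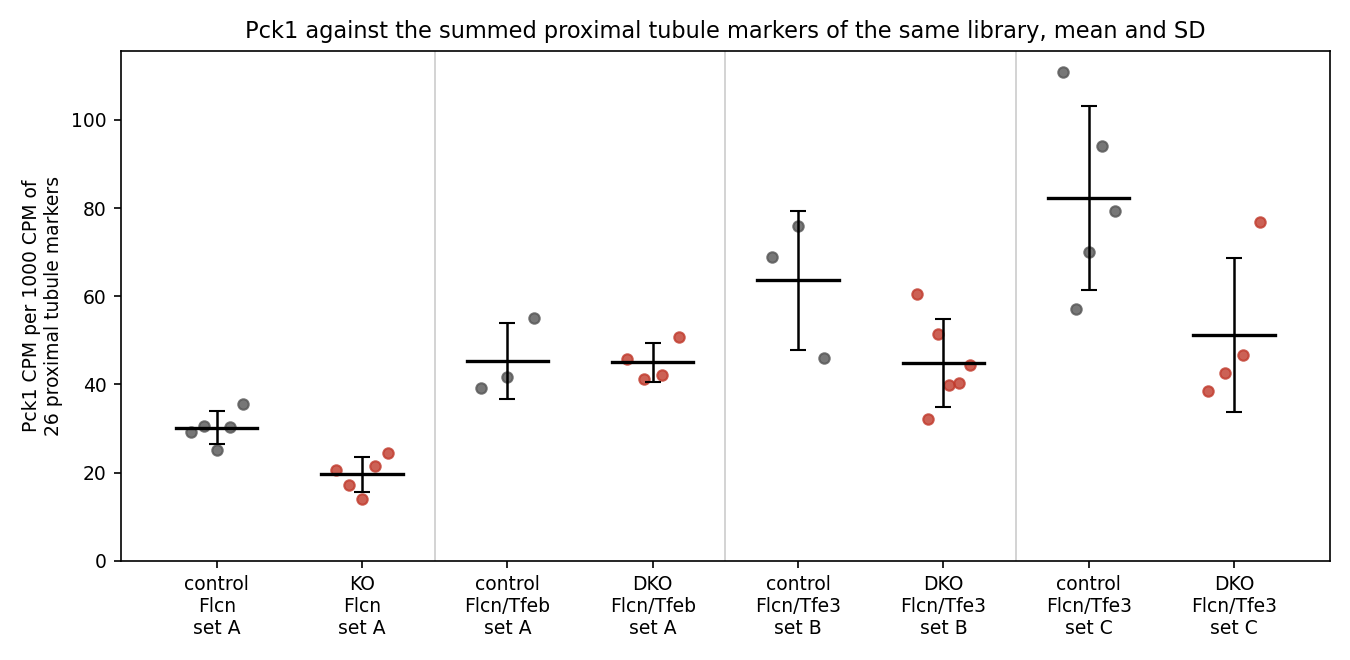
Pck1 per 1000 CPM of the 26 summed proximal tubule markers of the same library (vertical axis, from 0), by group and set (horizontal axis); points are libraries, grey for controls and red for KO or DKO, and bars give the mean and SD. The Flcn KO libraries lie from 14.02 to 24.4 and their controls from 25.2 to 35.5, whereas the Flcn/Tfeb DKO libraries, from 41.1 to 50.8, lie within the range of their controls.

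In the Flcn/Tfeb cross none of the 6 genes was called. Pck1 had 182, 136, 147 and 208 CPM in Flcn/Tfeb DKO replicates 1 to 4 and 178, 138 and 271 CPM in control replicates 1 to 3. The groups overlapped, and control replicate 3 stood above all others. On the log2 scale the change was -0.22, with a standard error of 0.24 and a 95% interval from -0.74 to 0.31 (adjusted p = 0.83, edgeR), and it was 0.091 without control replicate 3. Per 1000 CPM of the proximal tubule markers Pck1 was at 44.97 ± 4.39 CPM (SD, n = 4) and 45.3 ± 8.55 CPM (SD, n = 3), a log2 difference of 0.00061 (exact permutation p = 1).

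The groups of the other enzymes overlapped as well in that cross, where 2.93% of genes had all DKO libraries below all controls. Fbp1 averaged 198 ± 26.3 CPM (SD, n = 4), with 259 ± 95.6 CPM in the controls (SD, n = 3), which is -0.39 on the log2 scale (-0.93 to 0.16). For Pcx the value was -0.30 (-0.79 to 0.18), for Slc37a4 -0.25 (-0.74 to 0.24), for G6pc -0.18 (-0.67 to 0.30) and for Pck2 0.13 (-0.37 to 0.64). Each of these values moved with single libraries. Pcx was at -0.53 without control replicate 2 and at -0.12 without control replicate 3, and Slc37a4 at -0.41 and -0.12. Fbp1 ran from -0.65 without control replicate 2 to -0.21 without control replicate 1, G6pc from -0.32 to 0.071 without the same 2 libraries, and Pck2 from 0.0050 without DKO replicate 4 to 0.26 without DKO replicate 2. The intervals are wide: with 4 against 3 libraries, edgeR called 0 of the 12469 genes tested (0%), DESeq2 called 0 as well, and 632 genes had an unadjusted p under 0.05. On simulated counts of this cross 20% of genes changed 2-fold were called, against 80% in the Flcn cross, so that a change of the size of Pck1 in the Flcn cross could be missed here. The summed hepatocyte markers ran from 336 to 3715 CPM in the DKO libraries and from 77.1 to 899 CPM in the controls. Pck1 was at -0.46 without the 2 DKO libraries of over 1000 CPM of these markers and at -0.49 with their sum as a covariate (adjusted p = 0.98 and 0.46). Mitochondrial counts made up 10.4 to 11.9% of the DKO libraries and 4.47 to 10.7% of the controls, and with this share as a covariate Pck1 was at 0.32 (adjusted p = 0.73). The 15 ratios included none of this cross with an exact p under 0.37.

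In the Flcn/Tfe3 cross Pck1 was again lower. In set B it had 222, 141, 205, 181, 158 and 191 CPM in DKO replicates 1 to 6 and 269, 316 and 227 CPM in control replicates 1 to 3, and the groups did not overlap. In set C it had 147, 166, 204 and 308 CPM in DKO replicates 7 to 10 and 429, 246, 313, 354 and 326 CPM in control replicates 4 to 8. Here DKO replicate 10 lay among the controls, and the other 3 DKO libraries lay below all of them. Over both sets the means were 192 ± 48.5 CPM (SD, n = 10) and 310 ± 64.5 CPM (SD, n = 8). With the set as a term, edgeR gave a log2 fold change of -0.65, with a standard error of 0.14, a 95% interval from -0.93 to -0.36 and an adjusted p of 0.029. In an exact permutation of libraries within sets the p was 0.00085. Pck1 was 1 of 5 genes called lower among 12456 tested (0.0401%), while 0.345% were called higher and 0.385% in all.

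The call of Pck1 in the Flcn/Tfe3 cross was kept in 8 of 15 alternative fits, and its direction was the same in each of the 15. It was lost with Xist as a covariate (-0.55, adjusted p = 0.18), with the share of mitochondrial counts (-0.64, adjusted p = 0.10), with the replicate number as a block (-0.77, adjusted p = 0.79), with the summed hepatocyte (-0.59, adjusted p = 0.15) or red blood cell markers (-0.55, adjusted p = 0.20) and without the 5 libraries that held over 1000 CPM of hepatocyte markers (-0.56, adjusted p = 0.44). The block joined libraries of different sets at numbers 4, 5 and 6, so that fit does not decide on the call. In the fit over both sets, all 10 hepatocyte markers tested (median log2 fold change -2.10) and all 5 red blood cell genes tested (median -0.64) were lower at an unadjusted p under 0.05, as were 3.48% of all genes, and none was called. In set B the 10 hepatocyte markers were below 0 (median -1.15) and 3 of 5 red blood cell genes were (median -0.13), none at an unadjusted p under 0.05. The call of Pck1 was also lost without control replicate 1, 2, 4, 7 or 8 or DKO replicate 2, 4, 5, 7, 8 or 9, with values from -0.66 to -0.58 and adjusted p from 0.051 to 0.11. In set B alone the log2 fold change was -0.56 (-0.88 to -0.24, adjusted p = 0.54 from edgeR, exact permutation p = 0.012, the smallest that 6 against 3 libraries allow), where edgeR called 0 genes lower (0%) and 0.0606% higher, and 1.24% of genes had all DKO libraries below all controls there.

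Per 1000 CPM of the proximal tubule markers, Pck1 was at 44.8 ± 9.97 CPM (SD, n = 6) against 63.6 ± 15.7 (SD, n = 3) in set B and at 51.1 ± 17.5 (SD, n = 4) against 82.3 ± 20.9 (SD, n = 5) in set C. The log2 difference over both sets was -0.61 (exact permutation p = 0.0055), with 6 of 10 DKO libraries below all controls, and it was -0.50 in set B (exact p = 0.095) and -0.70 in set C (exact p = 0.048). G6pc differed in the same way, by -0.43 over both sets (exact permutation p = 0.0058), with 7 of 10 DKO libraries below all controls, and by -0.11 in set B (exact p = 0.45) and -0.72 in set C (exact p = 0.0079). For Fbp1 the difference was -0.25 over both sets (exact p = 0.066) and -0.50 in set C (exact p = 0.024), and for Pck2, Pcx and Slc37a4 it lay between -0.20 and 0.043 over both sets (exact p from 0.10 to 0.77). These p-values were not adjusted for the number of genes and sets. The 26 markers themselves had a median log2 fold change of -0.072 in this cross, with 20 of 26 below 0, a lowest value of -0.40 and none called. The log2 ratio of Pck1 to Pck2 differed by -0.65 (exact p = 0.0016, adjusted p = 0.024) and that to Fbp1 by -0.36 (exact p = 0.015, adjusted p = 0.048). With 2 CPM added the ratio to Pck2 passed (adjusted p = 0.024) and that to Fbp1 did not (adjusted p = 0.051), and the latter differed by -0.53 in set B (exact p = 0.012) and by -0.20 in set C (exact p = 0.32). The ratios to Pcx (-0.53, exact p = 0.021, adjusted p = 0.053), Slc37a4 (-0.41, exact p = 0.037, adjusted p = 0.066) and G6pc (-0.18, exact p = 0.42, adjusted p = 0.57) did not pass the adjustment.

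Of the other enzymes in this cross none was called over both sets, and the values of all but Pck2 were closer to 0 in set B than in set C, a difference that was not tested. G6pc stood at -0.49 on the log2 scale (standard error 0.14, 95% interval -0.78 to -0.20, adjusted p = 0.20 from edgeR), Fbp1 at -0.31 (-0.53 to -0.081, adjusted p = 0.43) and Slc37a4 at -0.25 (-0.47 to -0.035, adjusted p = 0.56). Pcx was at -0.14 (-0.38 to 0.097), with -0.22 without control replicate 1 and -0.081 without control replicate 5. Pck2 was at -0.019 (-0.27 to 0.23). All 6 genes were below 0, with a median of -0.28 where that of all genes was 0.0090. In set B alone the values were -0.16 for G6pc, -0.022 for Fbp1, -0.20 for Slc37a4, 0.10 for Pcx and -0.063 for Pck2, with adjusted p from 0.77 to 0.97.

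In set C alone 3 of the 6 genes were called lower, in a fit that called 460 of 12169 genes lower (3.78%) and 0.896% higher. G6pc had 82.3, 75.3, 106 and 105 CPM in DKO replicates 7 to 10 and 121, 202, 146, 152 and 156 CPM in control replicates 4 to 8. These groups did not overlap, and edgeR gave -0.82 on the log2 scale (standard error 0.16, adjusted p = 0.0099). Fbp1 had 159, 156, 187 and 203 CPM against 280, 259, 218, 261 and 249 CPM, again without overlap (log2 fold change -0.60, standard error 0.14, adjusted p = 0.021), and groups did not overlap downward in 1.98% of genes. Pck1 was at -0.76 (standard error 0.20, adjusted p = 0.033). Pcx (-0.39, adjusted p = 0.14), Slc37a4 (-0.34, adjusted p = 0.24) and Pck2 (-0.0093, adjusted p = 0.98) were not called. The log2 ratio of Pck1 to G6pc differed by 0.017 between the groups of this set (exact permutation p = 0.97).

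**Figure D4:**
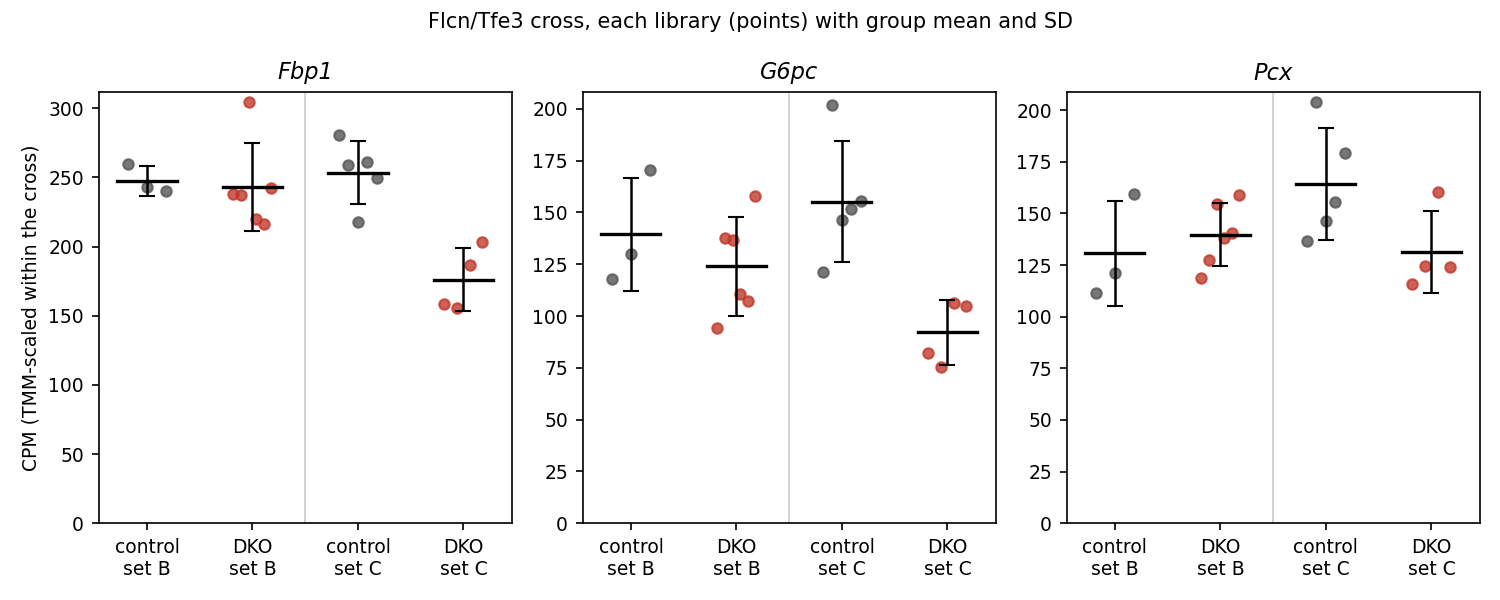
Fbp1, G6pc and Pcx in CPM (vertical axes, each from 0) in the libraries of the Flcn/Tfe3 cross, by set and group (horizontal axis); points are libraries, grey for controls and red for DKO, and bars give the mean and SD. Fbp1 and G6pc separate the groups in set C, with G6pc at 75.3 to 106 CPM in DKO and 121 to 202 CPM in controls, and overlap in set B.

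Markers of other cell types were called in set C. Of 9 hepatocyte markers tested 8 were called lower, with a median log2 fold change of -3.45 and a sum of 90.9 to 176 CPM in DKO and 100 to 3744 CPM in control libraries. Of 5 red blood cell genes 4 were called lower, with 1448 to 1896 CPM against 2128 to 7526 CPM. Of 10 adipose markers 3 were tested and Fabp4 was called lower (-0.92), their sum being 249.8 to 274 CPM against 236 to 590.5 CPM, while Lep had 0 counts in each library of the set. The 26 proximal tubule markers summed to 3831 to 4366 CPM against 3764 to 4470 CPM. Without control replicates 4 and 7, whose hepatocyte markers exceeded 1000 CPM, 3 genes were called in place of 569, and G6pc was at -0.94 (adjusted p = 0.059), Fbp1 at -0.53 (adjusted p = 0.14) and Pck1 at -0.59 (adjusted p = 0.22). With the summed red blood cell genes as a covariate 0 genes were called by edgeR, and the values were -0.39 for G6pc, -0.33 for Fbp1 and -0.77 for Pck1 (adjusted p = 0.99 for each). These summed levels did not overlap between the groups, so this fit can hardly tell the covariate from the group. Without 1 library the number of genes called in set C ran from 26 (DKO replicate 10) to 2404 (control replicate 6). The calls of the members were also lost without single libraries: G6pc without DKO replicate 7, 8 or 10 (-0.89 to -0.73, adjusted p = 0.051 to 0.062), Fbp1 without control replicate 4 or DKO replicate 7, 8, 9 or 10 (-0.68 to -0.54, adjusted p = 0.054 to 0.10), and Pck1 without control replicate 4, 7 or 8 or DKO replicate 7, 8 or 9 (-0.77 to -0.63, adjusted p = 0.060 to 0.15).

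The effects of the crosses were compared with each other, each against its own controls. The log2 effect on Pck1 was higher by 0.60 in the Flcn/Tfeb cross than in the Flcn cross (standard error 0.28, 95% interval 0.024 to 1.19, unadjusted p = 0.042), which did not pass the adjustment over all genes (adjusted p = 0.82 from edgeR). Omitting control replicate 2 of the Flcn/Tfeb cross gave 0.41, and omitting control replicate 3 gave 0.92. These crosses also differed in the share of libraries with Xist. The value was 0.61 to 0.62 in 3 alternative fits, including that with Xist as a covariate (adjusted p = 0.81 to 0.90 from edgeR). Between the Flcn/Tfe3 and Flcn crosses the difference was 0.18 (-0.28 to 0.64, adjusted p = 0.85), and between the Flcn/Tfe3 and Flcn/Tfeb crosses it was -0.45 (-1.02 to 0.12, adjusted p = 0.50). The former was 0.059 without DKO replicate 10 of the Flcn/Tfe3 cross, and the latter ran from -0.74 to -0.26 without control replicate 3 or 2 of the Flcn/Tfeb cross. The effect on Pck1 is thus called in the Flcn and Flcn/Tfe3 crosses and not in the Flcn/Tfeb cross, but a difference between crosses is not shown. For the other 5 genes the 15 differences lay between -0.40 and 0.42, with adjusted p from 0.62 to 0.99.

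The level of Pck1 on a scale shared by all 35 libraries was lowest in libraries labelled Flcn KO (86.7 ± 20.3 CPM, SD, n = 5), whose range did not overlap with that of the next group, the Flcn controls (155 ± 15.2 CPM, SD, n = 5). There followed Flcn/Tfeb DKO (175 ± 35.1, n = 4), Flcn/Tfe3 DKO of set B (181 ± 29.1, n = 6) and of set C (201 ± 70.3, n = 4), Flcn/Tfeb controls (205 ± 71.2, n = 3) and Flcn/Tfe3 controls of set B (267 ± 43.4, n = 3) and of set C (331 ± 68.4, n = 5). From the Flcn controls upward each group overlapped with the next. The controls of the 3 crosses thus ran from 140 to 432 CPM, and cross, set and processing cannot be told apart in these levels, whose order is given without a test.

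Within groups the 6 genes did not vary as a block. After the mean of the own group and set was taken from log2(CPM + 0.5), Pcx and G6pc were most closely tied over the 35 libraries (Pearson r = 0.73, Spearman rho = 0.72, permutation p adjusted over 15 pairs 0.0011 and 0.0021), and r was 0.69 without the 2 libraries farthest from the median. Pcx and Fbp1 (r = 0.63, rho = 0.53, adjusted p = 0.030 and 0.039), Pck1 and Fbp1 (r = 0.55, rho = 0.58, adjusted p = 0.030 and 0.019) and Fbp1 and Slc37a4 (r = 0.51, rho = 0.48, adjusted p = 0.045 and 0.048) also passed, by permutation within groups, with r = 0.54, 0.54 and 0.40 without the 2 farthest libraries. For Fbp1 and G6pc the rank correlation passed (rho = 0.48, adjusted p = 0.048) and r did not (0.46, adjusted p = 0.070, permutation). Between Pck1 and G6pc no correlation was found (r = -0.019, rho = -0.022, adjusted p = 0.92 and 0.97, permutation), and Pck2 had no r above 0.27 with any other member. Libraries of a group also differ in depth and tissue composition, whose part in these correlations was not tested.

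**Figure D5:**
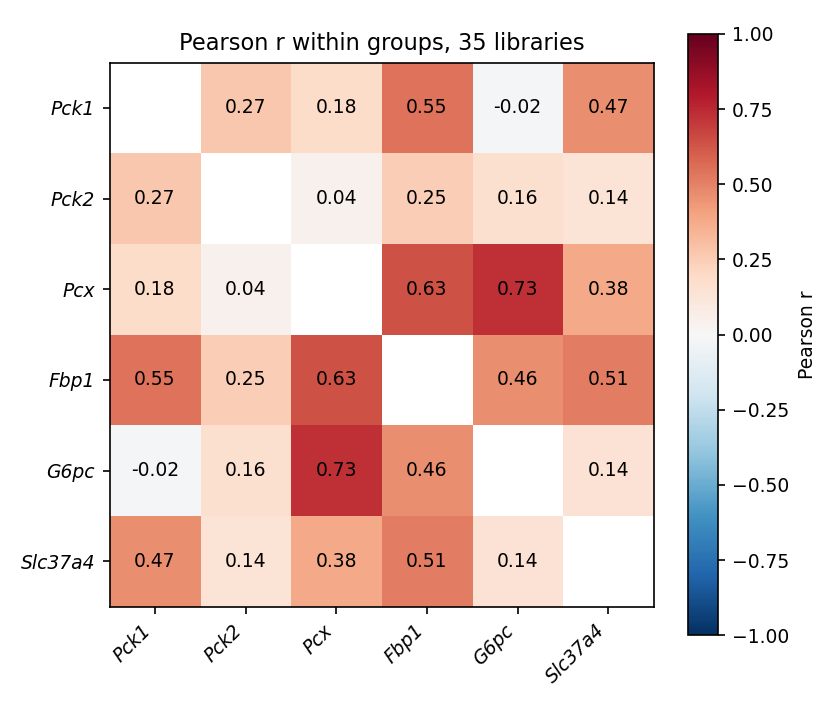
Pearson r between the 6 genes (both axes) over 35 libraries, each value less the mean of its own group and set; the colour scale runs from -1 (blue) to 1 (red). The highest value, 0.73, is that of Pcx and G6pc, and that of Pck1 and G6pc is -0.02.

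The genes whose within-group pattern was most like that of Pck1, of 11147 ranked over 35 libraries, were Rnf114 (r = 0.78), a ubiquitin ligase, Hectd3 (r = 0.76), a ubiquitin ligase as well, H6pd (r = 0.73), the hexose-6-phosphate dehydrogenase of the endoplasmic reticulum, Glud1 (r = 0.73), glutamate dehydrogenase, and Impa1 (r = 0.73), inositol monophosphatase. None of these 5 was called in any cross, and their log2 fold changes lay between -0.25 and -0.14 in the Flcn cross, between -0.57 and -0.051 in the Flcn/Tfeb cross and between -0.16 and 0.26 in the Flcn/Tfe3 cross, where Rnf114, Hectd3 and Impa1 were above 0. Fbp1 ranked 155 in this order, Slc37a4 417, Pck2 1941, Pcx 2996 and G6pc 5951.

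The genes around the pathway were taken from lists compiled by hand: 15 enzymes of steps shared with glycolysis, 13 of the opposing glycolytic steps, 20 of substrate entry, 19 regulators and 10 of glucose transport. The genes named are the lowest and the highest of each list among genes averaging 10 counts or more. In the Flcn cross none of the 68 tested genes of these lists was called. The shared steps ran from -0.29 (Gapdh, adjusted p = 0.62) to 0.43 (Pgam1, adjusted p = 0.48), with a median of 0.17. The glycolytic counterparts ran from -0.72 (Pklr, the liver and red cell pyruvate kinase, adjusted p = 0.39) to 0.50 (Pfkfb3, adjusted p = 0.42). Substrate entry ran from -0.52 (Gpd1, the cytosolic glycerol-3-phosphate dehydrogenase, adjusted p = 0.12) to 0.79 (Gpt, alanine aminotransferase, adjusted p = 0.45). The regulators had a median of -0.054 and reached up to 0.38 (Irs2, adjusted p = 0.34). Counted at an unadjusted p under 0.05, the shared steps had 4 genes higher and 0 lower, and the glycolytic counterparts 1 and 1. Substrate entry had 1 higher and 3 lower, and the regulators 2 and 3 (5.25% of all genes were higher and 3.81% lower). All 8 tested genes of glucose transport were below 0, as were 51.5% of all genes, and 4 of them had an unadjusted p under 0.05, where 3.81% of all genes were lower at this p, with a median of -0.34 and a range from -0.96 (Slc2a9, a urate and hexose transporter, adjusted p = 0.19) to -0.049 (Slc2a1, adjusted p = 0.95). Of 15 genes of the segments where the Cre acts, all of them tested, 2 were called higher (0.453% of all genes) and none lower, and 5 had a value below 0. Umod, the uromodulin of the thick ascending limb, rose by 1.0 (adjusted p = 0.0004) and Scnn1b, a subunit of the epithelial sodium channel, by 0.58 (adjusted p = 0.049). The call of Scnn1b was kept in 3 of 10 fits without 1 library and in 4 of 8 alternative fits. At an unadjusted p under 0.05 there were 4 higher and 2 lower (5.25% and 3.81% of all genes), the latter being Calb1 (-0.68, adjusted p = 0.11) and Aqp2 (-0.48, adjusted p = 0.20).

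In the Flcn/Tfeb cross none of these genes was called either, and many values rested on control replicate 3. The shared steps ran from -1.11 (Gapdh, 0.18 without that library) to 0.66 (Eno1, 0.20 without it), the glycolytic counterparts from -0.89 (Pklr, -0.42 without it) to 0.073 (Pfkfb3) and substrate entry from -0.95 (Slc25a10, the dicarboxylate carrier, 0.39 without it) to 0.26 (Mpc2, a subunit of the pyruvate carrier, 0.031 without it). The regulators ran from -1.04 (Foxo3, -0.043 without it) to 1.74 (Igfbp1, 0.36 without DKO replicate 1). Glucose transport ran from -0.80 (Slc5a1) to 0.14 (G6pc3, 0.0023 without DKO replicate 2 and 0.31 without DKO replicate 4). The adjusted p of these genes lay between 0.80 and 0.95.

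In the Flcn/Tfe3 cross 1 of 70 tested genes of these lists was called, where 0.385% of all genes were called in either direction. This was Ppargc1a, a coactivator that drives transcription of Pck1 and of mitochondrial genes. It averaged 125 ± 36.9 CPM (SD, n = 10), with 83.1 ± 16.6 CPM in the controls (SD, n = 8), and rose by 0.63 on the log2 scale (standard error 0.13, adjusted p = 0.017, edgeR), a direction opposite to that of Pck1 in the same libraries. In set C it was 0.85 (adjusted p = 0.0078) and in set B 0.36 (adjusted p = 0.75), and the call over both sets was lost without control replicate 7 or DKO replicate 7 or 8 (0.59 to 0.60, adjusted p = 0.051 to 0.054) and with Xist or the mitochondrial share as a covariate (0.59 and 0.57, adjusted p = 0.097 and 0.10). It was also lost with the replicate block (0.60, adjusted p = 1.0) and without the set term (0.57, adjusted p = 0.28). In the Flcn cross Ppargc1a was at 0.35 (adjusted p = 0.26) and in the Flcn/Tfeb cross at -0.10 (adjusted p = 0.89). Whether Ppargc1a and Pck1 changed in the same cells of the kidney was not tested. The shared steps ran from -0.38 (Pgk1, -0.18 without control replicate 4) to 0.51 (Got1, cytosolic aspartate aminotransferase, adjusted p = 0.054), the glycolytic counterparts from -0.79 (Pklr, adjusted p = 0.17) to 0.38 (Hk2) and substrate entry from -0.26 (Gk) to 0.36 (Ogdh). The regulators reached down to -1.74 (Igfbp1, adjusted p = 0.38). Igfbp1 was at -0.98 without control replicate 1, whose hepatocyte markers summed to 6800 CPM, and at -0.47 with the replicate block. Glucose transport ran from -0.40 (Slc5a2, the glucose carrier of the early proximal tubule, adjusted p = 0.74, -0.24 without DKO replicate 10) to 0.076 (Slc2a1). Slc2a1 was at 0.0090 without control replicate 5 and at 0.18 without control replicate 1. Of 14 tested genes of the segments where the Cre acts, 6 were below 0 and 1 was called higher (0.345% of all genes were). This was Umod, which rose by 0.71 (adjusted p = 0.00022), a call lost with the replicate block (0.65, adjusted p = 0.70) and in set B alone (0.63, adjusted p = 0.12). At an unadjusted p under 0.05, 6 genes were higher (3.68% of all genes) and 2 lower (3.48%), Avpr2 (-0.57, adjusted p = 0.43) and Aqp2 (-0.40, adjusted p = 0.21).

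In set C, where cell type markers moved with the groups as given above, 10 of 70 tested genes of the pathway lists were called, where 4.68% of all genes were called in either direction. Higher were Got1 (0.72) and Got2 (0.81), the aspartate aminotransferases, Hk1 (0.75), Pkm (0.67), Ogdh (0.62), Foxo1 (0.71), a forkhead activator of gluconeogenic genes, and Ppargc1a (0.85). Lower were Mpc2 (-0.79), Gk, glycerol kinase (-0.61), and Igfbp1 (-2.45), which the liver secretes. Of the proximal tubule markers Gatm was called lower (-0.65), and of the segments where the Cre acts Umod was called higher (0.75) and Aqp2 lower (-0.61).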

How the data were processed

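Whole kidneys were profiled with QuantSeq, which sequences the 3′ end of transcripts. The authors trimmed reads with bbduk, aligned them with STAR to mm10 (the submitters' processing notes also name Trim Galore) and assigned them to genes with HTSeq-count. The authors deposited the resulting raw counts, without normalization, as 17 separate tables and 2 tables of several libraries, of which 1 pooled column was not used. Reads with more than 1 place in the genome (33.7 to 49.4% in 26 libraries with a tally) were left uncounted.

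Counts were filtered with filterByExpr, scaled by TMM and tested with edgeR 4.0.16 (quasi-likelihood F test, Benjamini-Hochberg adjustment over all genes tested, adjusted p under 0.05) in R 4.3.3, each cross by itself, and for Flcn/Tfe3 with a term for the set. Interaction terms compared the crosses. Single values were compared by exact two-sided permutation of libraries on log2(CPM + 0.5), and correlations by 100000 permutations within groups, with Python 3.11.15, numpy 2.4.6, scipy 1.17.1 and pandas 2.3.3. Figures were drawn with matplotlib 3.10.9. DESeq2 1.42.0, other scalings and filters, covariates and the omission of each library were alternatives. On simulated counts with 200 genes changed 2-fold, the share called was 80% (Flcn), 20% (Flcn/Tfeb) and 85.5% (Flcn/Tfe3). Unchanged genes were called as well: 16 beside 160 changed genes (Flcn), 7 beside 40 (Flcn/Tfeb) and 7 beside 171 (Flcn/Tfe3). The labels call the libraries biological replicates, and 63 pairs of the same group and set differed by 2.71 to 39.1 times the sampling noise (chi-square per degree of freedom).

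The members and gene lists were chosen with earlier results of these data known. The genes named are the 6 members, those called in a list (at most 4 per list) and the lowest and highest of each pathway list among genes with a mean of at least 10 counts, of which 1 is not reported here.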

Additional observations from a re-analysis of the deposited data

Results flagged for a closer look

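Fbp1 in the Flcn/Tfe3 DKO library of set B, replicate 3, was at 304 CPM, above the other 5 libraries of its group, of which the nearest was at 242 CPM. The gap was 0.705 of the range of the 6 libraries. It was the only such library among 36 groups examined, and chance gives about 1 in 20. Without this library the log2 fold change of Fbp1 in the Flcn/Tfe3 cross was -0.35 (adjusted p = 0.20 from edgeR).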

How the results depend on the processing

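Pck1 in the Flcn cross was called in 12 of 13 alternatives and in each of the 10 fits without 1 library (-0.93 to -0.71). It was lost with the summed proximal tubule markers as a covariate (-0.67), where Pcx (0.032), Fbp1 (0.040), G6pc (0.19) and Slc37a4 (0.0042) changed sign, as G6pc did with adipose markers (0.051). That cross had 62 genes called, against 118 with DESeq2, 95 without a filter, 147 with the mitochondrial share as a covariate and 11 with proximal tubule markers. Without 1 library the count ran from 37 (Flcn KO replicate 3) to 58, with 40 without Flcn KO replicate 2 and 39 without replicate 4. G6pc ran from -0.23 to 0.049 and Slc2a1 from -0.12 to 0.027.

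In the Flcn/Tfeb cross 0 genes became 1 with all 17 libraries in one fit, 32 with proximal tubule markers and 0 to 1 without 1 library. Pck1 turned positive with the mitochondrial share (0.32), proximal tubule (0.10) and adipose markers (0.14) and ran from -0.41 to 0.091 without 1 library. With the mitochondrial share Pcx was 0.12, Fbp1 0.011, Slc37a4 0.052, Gapdh 0.66, Eno1 -0.13, Slc25a10 0.81, Mpc2 -0.15 and Foxo3 0.38. With proximal tubule markers Pcx was 0.017, Fbp1 0.017, G6pc 0.0056 and Slc37a4 0.030. Without 1 library G6pc ran from -0.32 to 0.071, Gapdh from -1.46 to 0.18, Pfkfb3 from -0.093 to 0.39 and Slc25a10 from -1.32 to 0.39.

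In the Flcn/Tfe3 cross 48 genes became 93 with DESeq2, 26 with Xist, 28 with the mitochondrial share, 29 without the set term, 8 in set B, 569 in set C, 18 without the libraries of over 1000 CPM of hepatocyte markers, 26 with hepatocyte and 23 with red blood cell markers, and ran from 30 (without DKO replicate 7) to 53 without 1 library. Pck1 was no longer called with Xist (-0.55), the mitochondrial share (-0.64), in set B (-0.56), without the hepatocyte-rich libraries (-0.56) and with hepatocyte (-0.59) or red blood cell markers (-0.55), and ran from -0.77 to -0.58 without 1 library. Pck2 was 0.082 with Xist, 0.053 without hepatocyte-rich libraries, 0.069 with hepatocyte and 0.015 with red blood cell markers, and -0.080 to 0.025 without 1 library. In set B Pcx was 0.10, Hk2 -0.0054, Gk 0.084, Slc5a2 0.16 and Slc2a1 -0.24, and with the mitochondrial share Slc2a1 was -0.015. In set C Pck2 was 0.13 without hepatocyte-rich libraries, 0.21 with red blood cell markers and -0.13 to 0.10 without 1 library, and the log2 ratio of Pck1 to G6pc differed by 0.017. The cause of these changes was not tested.

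Replicate numbers did not pair the libraries: correlations of same-numbered libraries ran from -0.234 to 0.316 (Flcn), -0.101 to 0.152 (Flcn/Tfeb) and -0.344 to 0.267 (Flcn/Tfe3). In the Flcn/Tfe3 cross numbers 4, 5 and 6 joined control and DKO libraries of different sets. The fits with the block therefore do not decide on any call of that cross. With the replicate block 48, 0 and 2 genes were called in the 3 crosses, and Pck1 was at -0.85, -0.29 and -0.77. Under the block Pck2 was -0.013 for Flcn/Tfeb and 0.041 for Flcn/Tfe3, where Hk2 was -0.15 and Slc2a1 -0.17. Covariates and omissions based on cell type markers were chosen after seeing the data. With 4 against 3 libraries the Flcn/Tfeb cross could miss changes of 2-fold.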
